A study of Bos taurus with 8 samples.

Results

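The Bovine Gene 1.0 ST array carries transcript clusters, that is, sets of probes summarised to 1 value per gene, for 574 microRNA genes, and 21.8% of them gave a mean signal of at least 5 on the log2 scale over 8 arrays of bovine granulosa cells. These measurable microRNA genes are described here: 116 with a mean of at least 5 in both groups, 8 in the pair-fed group only and 1 in the heat stress group only. They were chosen by their gene symbol and by that mean alone, and each is represented by 1 cluster. A mean of at least 5 was reached by 56.6% of all clusters on the array. The values are robust multichip average (RMA) signals, so that a difference of 1 corresponds to a factor of 2 in signal.

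The RNA came from mural granulosa cells, the cells that line the wall of the follicle, of 8 non-pregnant German Holstein cows in their second lactation. In the heat stress (HS) group, 4 cows stayed at 28°C and 52% relative humidity (temperature humidity index 76) in a climate chamber for 96 h. In the pair-fed (PF) group, 4 cows stayed at 15°C and 64% relative humidity (index 60) for the same time. Their feed was restricted in proportion to the intake measured before in the HS cows. HS against PF may therefore also be earlier against later, and these cannot be told apart here. All cows of both groups received 500 µg prostaglandin F2α at 72 h before slaughter and 100 µg of a GnRH analog 49 h after it. This schedule was meant to sample both groups after an induced luteinizing hormone surge and before ovulation. Cells were scraped from the wall of the largest follicle, each array stands for 1 cow, and only 1 breed and this single intended stage were examined.

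A microRNA is cut from a hairpin inside a longer primary transcript. The nuclear enzyme DROSHA with its partner DGCR8 releases the hairpin, exportin 5 carries it to the cytoplasm, DICER1 trims it, and an Argonaute protein uses the short mature strand to find messenger RNAs and to repress them. Many microRNA genes lie inside other genes, often within an intron, and some are transcribed together from 1 primary transcript. In granulosa cells, loss of DICER1 is known in the mouse to impair ovulation and fertility. An array probe for a microRNA gene reads any labelled RNA that holds the hairpin sequence. The signals may therefore come from primary transcripts, RNA of the surrounding gene or precursors, in shares that were not measured. They are not levels of mature microRNAs.

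The measurable microRNA genes had a lower median signal than all clusters held to the same limit of 5. Their means ran between 5.01 and 9.52 with a median of 5.84, 56 of them reached 6, 13 reached 7 and 3 reached 8. All clusters with a mean of at least 5 had a median of 6.75. Without that limit, all microRNA genes had a median of 3.30 and all clusters one of 5.38. On all 8 arrays, 88 of the measurable genes stayed at 5 or above. Near the limit, MIR2430 with a mean of 5.02 and MIR2346 and MIR2457 with 5.01 each were just inside, while MIR2407 with 4.98 and MIR764 and MIR2403 with 4.97 each were just outside. The 8 genes with a mean of at least 5 in PF only were MIR127, MIR26A-1, MIR25, MIR1287, MIR2398, MIR2430, MIR2457 and MIRLET7D, and the 1 in HS only was MIR2346, so that their place here rests on 1 of the groups.

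The order of signals reflects the probes as well as the RNA and is given only as a description. The strongest signals came from microRNA genes that were described in cattle and for which no function can be given here. MIR2315, which lies within the span of RNF141, a RING finger protein gene, measured 9.73, 9.77, 9.61 and 9.47 in HS cows, against 9.77, 9.44, 9.02 and 9.31 in PF cows. MIR2350, within the span of BIN1, which encodes a membrane-shaping protein, measured 8.79, 8.85, 9.03 and 9.11 in HS cows, against 9.06, 9.08, 9.26 and 9.30 in PF cows. The groups overlapped for both genes, and the differences in means of 0.26 ± 0.16 and -0.23 ± 0.11 (HS minus PF, ± SE, n = 4 each) had adjusted p-values of 0.707 and 0.683 in limma with Benjamini-Hochberg adjustment over all clusters. Next in signal were MIR2475 (mean 8.20), MIR2416 (7.83), MIR2364 (7.80), MIR2404-2 (7.79), MIR1225 (7.73), MIR105A (7.25), MIR2373 (7.24) and MIR346 (7.23). MIR1225 lies within PKD1, the gene of the kidney protein polycystin 1, and MIR346 within GRID1, the gene of a glutamate receptor subunit. Differences of these 8 genes lay between -0.31 for MIR2364 and 0.20 for MIR2416 and MIR1225.

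Genes with a measurable signal differed from the other microRNA genes in where they lie and how they are named, in features that the choice did not use. All but MIR2487 of the measurable genes (124) could be matched by accession to the RefSeq gene table of the assembly ARS-UCD2.0, as could 444 of the microRNA genes under 5. The table was used only for names and for which genes lie together. A protein-coding gene spanned 96 (77.4%) of the matched measurable genes and 262 (59%) of the matched genes under 5, and no annotated gene spanned 19 (15.3%) and 131 (29.5%). Another microRNA gene lay within 10 kb of 23 (18.5%) of the measurable genes and of 157 (35.4%) of the others. The annotated hairpins had a median length of 76 bases among the measurable genes and of 79 bases among the others. Symbols in the block MIR2284 to MIR2489, which holds many microRNAs named first in cattle, made up 71 (56.8%) of the measurable genes and 148 (33%) of those under 5. These shares are descriptions, and no test was made on them.

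Between HS and PF, none of the measurable microRNA genes passed the thresholds of the study in limma, that is, more than a 1.5-fold difference with p under 0.05 before adjustment, whereas 2.21% of all clusters did (1.58% higher and 0.627% lower in HS). The methods' t-test also called 0 of them. At an unadjusted p under 0.05, limma gave 7 of them (5.6%) beside 7.20% of all clusters, and the methods' t-test gave 8. After Benjamini-Hochberg adjustment over all clusters, limma gave 0 of the measurable genes (smallest adjusted p = 0.667) and 0% of all clusters. The signal was lower in HS for 88 measurable genes (70.4%) and higher for 37, with a median difference of -0.07. Of the microRNA genes under 5, 63.9% were lower (median -0.05), and of all clusters 54% (median -0.02). The split of the measurable genes depended on the scaling. With each array's median subtracted, 66 were lower and 59 higher, at a median of -0.02, while the median of all clusters became 0.04. It depended on single arrays as well. With 1 array left out, between 68 (without PF replicate 3) and 105 (without PF replicate 1) were lower, with 98 lower without HS replicate 4, and 90 were lower without PF replicates 1 and 3.

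The differences were small. Of the measurable genes, 99 differed by less than 0.25 and 121 by less than 0.5 on the log2 scale, and only MIR1287, MIR2366 and MIR2359 exceeded a fold change of 1.5. The 95% confidence interval of the difference lay wholly within a 1.5-fold change in either direction for 72 genes (57.6%), beside 60.0% of all clusters. For the others the interval reached beyond a change of that size. Its width from the centre to either end had a median of 0.38, with 0.22 for the most precise gene and 2.36 for the least precise one, MIR421.

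**Figure D1:**
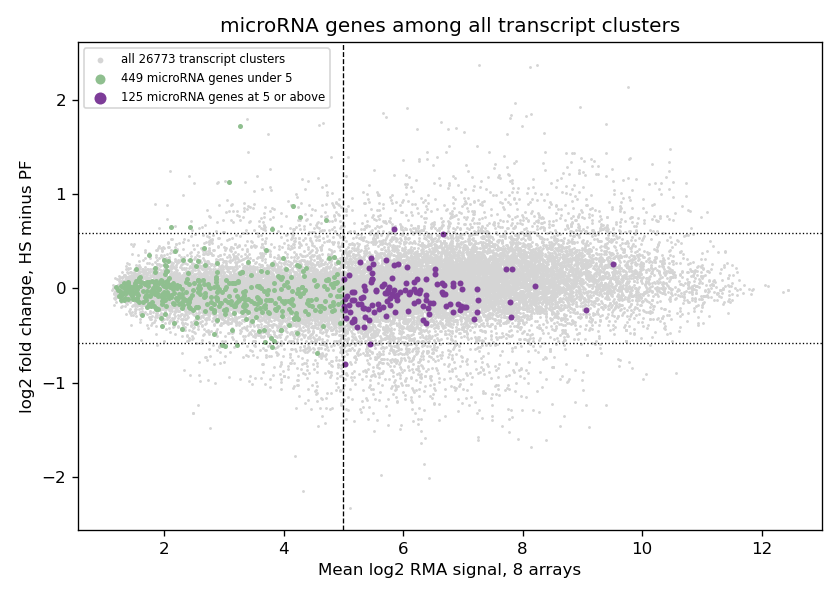
Mean log2 RMA signal over 8 arrays (x axis) and log2 fold change, HS minus PF (y axis), for all transcript clusters (grey), the microRNA genes under 5 (green) and those at 5 or above (purple). The dashed line marks the mean of 5 and the dotted lines a fold change of 1.5; 3 purple points lie beyond the dotted lines, at -0.80, -0.59 and 0.63.

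No overlap between the groups was seen for 4 measurable microRNA genes (3.2%), all of them lower in HS. Among all clusters, 4.64% showed no overlap, 2.00% with HS lower and 2.64% with HS higher, so the share was below that of the array with both directions pooled and above it for HS lower alone. These 4 genes were MIR25, MIR449D, MIR187 and MIRLET7D, and none of them reached a fold change of 1.5. The separation of MIR187 and MIRLET7D depended on the scaling. With array medians subtracted or quantile normalization repeated, both genes overlapped between the groups, MIR25 and MIR449D stayed without overlap, and MIR191 (higher in HS) and MIR26A-1 (lower) became separate, as did MIR2412 (lower) with array medians subtracted. MIR25 and MIRLET7D had an HS mean under 5 and reached the mean of 5 only through PF, where they were high, so that their direction is in part set by the choice of genes.

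MIR25 belongs to a cluster of 3 microRNA genes with MIR106B and MIR93 inside MCM7, the gene of a subunit of the replicative DNA helicase, and is a relative of the miR-17-92 cluster, which is known for its role in cell proliferation. It measured 5.0, 4.92, 5.0 and 5.05 in HS cows, against 5.24, 5.35, 5.50 and 5.26 in PF cows. The HS values lay close together and all below the PF values. The difference was -0.35 ± 0.09 (SE; interval -0.56 to -0.13) with an adjusted p of 0.667 in limma. Its cluster neighbours did not share the separation. MIR106B measured 5.14, 5.43, 5.43 and 5.55 in HS cows, against 5.06, 5.52, 6.05 and 5.64 in PF cows, and MIR93, under the mean of 5, averaged 4.09 ± 0.24 in HS and 4.02 ± 0.17 in PF (SD, n = 4 each). MCM7 itself measured 8.32, 8.24, 8.26 and 8.37 in HS cows, against 8.21, 8.22, 8.19 and 8.25 in PF cows, a difference of 0.08.

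MIR449D, of the miR-34 and miR-449 family, whose miR-449 branch is known for its part in the formation of multiciliated cells, measured 6.10, 6.25, 6.42 and 6.02 in HS cows, against 6.47, 6.44, 6.68 and 6.68 in PF cows. The highest HS value fell just short of the lowest PF value, and the difference was -0.37 ± 0.12 (adjusted p = 0.683 in limma). Its relative MIR449B averaged 6.09 in HS and 6.26 in PF, a difference of -0.16. NAV2, the gene that spans MIR449D, differed by -0.40 ± 0.39 and overlapped between the groups.

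MIR187 measured 5.16, 5.05, 5.32 and 5.32 in HS cows, against 5.44, 5.71, 5.39 and 5.52 in PF cows, a difference of -0.30 ± 0.11 (adjusted p = 0.683 in limma). MIRLET7D, a member of the let-7 family, which is best known for restraining growth and for its mutual control with LIN28, measured 5.01, 4.75, 4.93 and 4.92 in HS cows, against 5.09, 5.03, 5.19 and 5.21 in PF cows. For both genes a narrow gap, less than the SD within either group, parted the groups, and it was lost under both rescalings named above. The difference of MIRLET7D was -0.23 ± 0.10 (adjusted p = 0.683 in limma).

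Another 3 genes had an unadjusted p under 0.05 in limma with overlapping groups, and each was lower in HS. MIR2453, spanned by TADA2B, a gene of a histone acetyltransferase complex subunit, measured 5.17, 4.90, 5.12 and 5.40 in HS cows, against 5.30, 5.61, 5.54 and 5.76 in PF cows. MIR2412 measured 6.29, 6.28, 6.22 and 6.45 in HS cows, against 6.43, 6.66, 6.58 and 6.65 in PF cows. MIR26A-1, spanned by CTDSPL, a phosphatase gene, measured 4.76, 4.97, 5.04 and 5.09 in HS cows, against 5.07, 5.18, 5.68 and 5.35 in PF cows. In each of these genes 1 HS value, that of replicate 4, lay above the lowest PF value, that of replicate 1. The differences were -0.41 ± 0.14, -0.27 ± 0.10 and -0.36 ± 0.15, each with an adjusted p of 0.683 in limma. MIR26A-1, like MIR25, is among the measurable genes only through PF, where it was high.

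**Figure D2:**
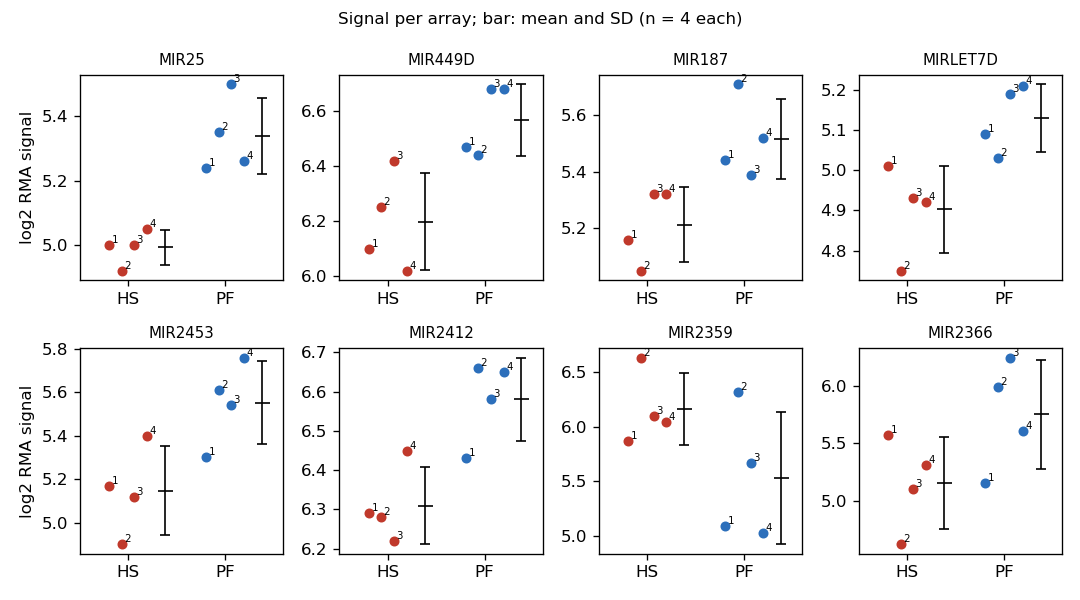
Log2 RMA signal on each array (points, numbered by replicate) for 8 microRNA genes in HS (left) and PF (right), with the mean and SD of 4 arrays beside each group; the vertical axes differ between panels and do not start at 0. In the upper row all 4 HS values lie below all 4 PF values, and in the lower row the groups overlap.

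The largest differences belonged to genes with a wide spread within groups. MIR1287, spanned by PYROXD2, measured 5.03, 4.14, 5.23 and 4.06 in HS cows, against 6.01, 4.29, 6.47 and 4.90 in PF cows. With means of 4.61 in HS and 5.42 in PF, it is included only through PF. Its direction is thus in part set by the choice of genes. Both groups were split into high and low arrays, and the difference of -0.80 ± 0.50 ran between -1.18 (without PF replicate 2, where it met the study's thresholds) and -0.45 (without PF replicate 3) with 1 array left out, and was 0.02 without PF replicates 1 and 3. MIR2366, spanned by MAP1A, a gene of a microtubule-associated protein, measured 5.57, 4.63, 5.11 and 5.31 in HS cows, against 5.16, 5.99, 6.24 and 5.61 in PF cows. MIR2359, spanned by IL6ST, which encodes the gp130 receptor chain shared by interleukin 6 and its relatives, measured 5.87, 6.63, 6.10 and 6.04 in HS cows, against 5.09, 6.32, 5.67 and 5.03 in PF cows. Only PF replicate 2 reached into the range of the HS values. The difference was -0.59 ± 0.27 for MIR2366 and 0.63 ± 0.30 for MIR2359 (adjusted p = 0.683 each in limma), and with 1 array left out they ran between -0.79 (without PF replicate 1) and -0.42 (without HS replicate 2) for MIR2366 and between 0.47 (without PF replicate 4) and 0.90 (without PF replicate 2) for MIR2359. MIR2366 met the study's thresholds without PF replicate 1 or HS replicate 1 (adjusted p = 0.761 and 0.972 in limma), and MIR2359 without PF replicate 2 (adjusted p = 0.393). MIR2439 followed the same arrays, at 6.83, 6.94, 6.81 and 7.19 in HS cows, against 5.39, 7.16, 6.56 and 6.35 in PF cows, a difference of 0.57 ± 0.33 that ran between 0.25 without PF replicate 1 and 0.84 without PF replicate 2, where it met the study's thresholds. It is spanned by MRTFA, the gene of a coactivator of serum response factor. The remaining largest difference without a separate account, that of MIR671, was -0.34 ± 0.21.

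Of all microRNA genes on the array, 21.8% had a mean of 5 or above, and the family counts are descriptions beside that share. Most families hold few genes, so their counts are not read as results about them. The only miR-320 gene listed, MIR320B, had a mean of 5 or above (6.50). Of 12 let-7 family genes, MIRLET7I (5.50) and MIRLET7D (5.02) did. MIRLET7I measured 5.83, 5.62, 5.56 and 5.51 in HS cows, against 5.19, 5.58, 4.99 and 5.70 in PF cows, so that the sign of its difference, 0.26 ± 0.17, was opposite to that of MIRLET7D, and the groups overlapped. Of 13 genes of the miR-17-92 family and its paralogs, 3 did (MIR106B, MIR25 and MIR92B), and MIR92B differed by -0.29 ± 0.15. The miR-34 and miR-449 family gave 2 of 7, and the miR-181 family 2 of 6, with MIR181C at 6.65 and MIR181D at 5.10, which lie together in the span of NANOS3. MIR15A was 1 of 6 genes of the miR-15 and miR-16 family, MIR30A 1 of 6 of the miR-30 family, and MIR99B 1 of 6 of the miR-99, miR-100 and miR-125 family. No gene of the miR-29 or miR-200 families, the miR-23, miR-27 and miR-24 genes, miR-221 and miR-222, or miR-143 and miR-145 reached 5. Of the MIR2284 and MIR2285 family, a large family first described in cattle, 1 of 25 did, MIR2284U with 6.22, beside a median of 1.97 over the family.

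A list of 12 microRNA genes that have been studied in granulosa cells held MIR21, MIR132, MIR212, MIR224 and MIR383 among others. On the array were 11 of them, and none reached 5, beside 21.8% of all microRNA genes. Their means ran between 1.58 and 4.83. MIR21 and the MIR132 and MIR212 pair are known in the mouse as microRNAs that rise in granulosa cells after the luteinizing hormone surge. Since the probes do not read mature microRNAs, a low signal here says little about those.

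Under the mean of 5, the study's thresholds were passed by 6 microRNA genes (1.34%), all higher in HS, beside 2.21% of all clusters in either direction and 1.58% higher in HS. They were MIR2284F (mean 4.71), MIR877 (4.15), MIR2480 (3.27), MIR224 (3.09), MIR2489 (2.43) and MIR2284B (2.11). MIR2480 measured 3.96, 4.49, 3.40 and 4.65 in HS cows, against 1.85, 2.34, 2.99 and 2.45 in PF cows, and MIR224, which transforming growth factor β is known to raise in mouse granulosa cells, measured 4.29, 3.57, 3.40 and 3.34 in HS cows, against 2.26, 2.21, 3.07 and 2.56 in PF cows. In both, the lowest HS value was above the highest PF value. The differences were 1.72 ± 0.32 and 1.13 ± 0.26, with an adjusted p of 0.641 each in limma. 

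The machinery that makes and uses microRNAs was mostly measurable, with differences of at most 0.25 in size. Of a list of 29 pathway genes, 28 were found on the array and 26 had a mean of at least 5. None met the study's thresholds, none had an unadjusted p under 0.05 in limma (1 did in the methods' t-test), and none was free of overlap. Over all clusters these shares were 2.21%, 7.20% and 4.64%, and the methods' t-test gave a p under 0.05 for 1802 of 26773 clusters. The signal was higher in HS for 19 and lower for 9, with a median difference of 0.09, and all differences lay between -0.24 and 0.25. DICER1 measured 8.93, 8.71, 8.62 and 8.81 in HS cows, against 8.37, 8.72, 8.79 and 8.54 in PF cows, a difference of 0.16 ± 0.12. DROSHA averaged 7.17 ± 0.06 in HS and 7.04 ± 0.17 in PF, DGCR8 6.87 ± 0.08 in HS and 6.77 ± 0.12 in PF, and XPO5, which encodes exportin 5, 7.07 ± 0.07 in HS and 7.03 ± 0.21 in PF (SD, n = 4 each). AGO2, the Argonaute protein that can cut its target, averaged 8.22 ± 0.03 in HS and 8.17 ± 0.40 in PF. For 21 of the 28 the 95% confidence interval stayed within a 1.5-fold change in either direction.

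The measurable genes differed between arrays of 1 group and tended to move together. Averaged over all of them, the arrays of HS replicates 1 to 4 read 5.89, 5.94, 6.06 and 6.18, against 5.79, 6.08, 6.36 and 6.14 for PF replicates 1 to 4. Averages over all clusters lay between 5.44 and 5.51 on the same arrays. PF replicate 3 gave the highest of the 8 values for 58 measurable genes (46.4%). This share was 33.2% among the microRNA genes under 5 and 26.1% among all clusters. The choice of the measurable genes used this array too, so the shares are descriptions only. PF replicate 1 gave the lowest for 52 measurable genes (41.6%), beside 21.1% of all clusters. HS replicate 1 gave the lowest value for another 35 (28.0%), beside 16.3%. The SD within a group had a median of 0.18 in HS and 0.26 in PF, or 0.23 in PF without replicate 3, and was larger in PF for 89 genes (71.2%), beside 75.5% of all clusters.

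**Figure D3:**
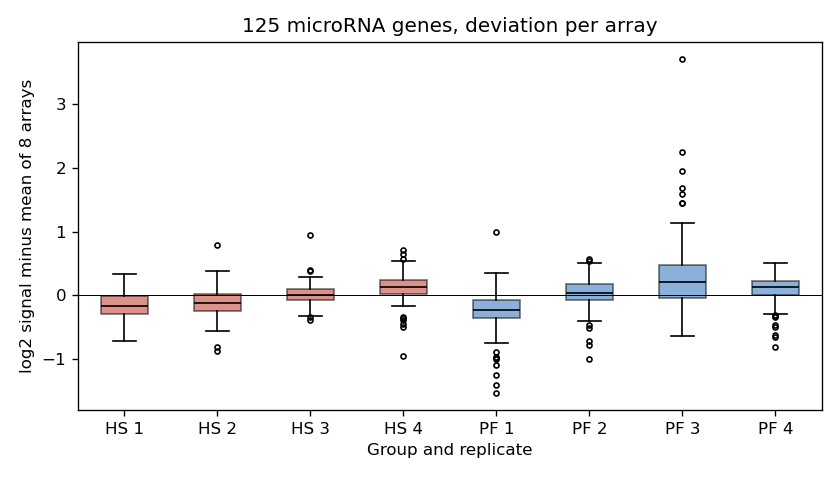
Deviation of each measurable microRNA gene from its own mean over 8 arrays (y axis, log2) on each array (x axis, HS arrays in red and PF arrays in blue); boxes show the median and quartiles, whiskers reach to 1.5 times the box height and circles are genes beyond. PF replicate 3 has the highest median and the farthest genes above, and PF replicate 1 the lowest median.

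PF replicate 3 also stood apart over all clusters. Its mean correlation with the other arrays was 0.941, beside 0.962 to 0.980 for the others. Of the 10 granulosa cell markers, all had a mean of at least 5, and their average lay between 8.72 and 9.57 in HS and between 8.03 and 8.58 in PF, with the lowest value on PF replicate 3. The markers did not move together there. On PF replicate 3, 6 of the 10 read below the mean of the other PF arrays, the farthest being INHA (by -2.99), which encodes the inhibin α subunit, and LHCGR (by -2.83), the luteinizing hormone receptor gene. The other 4 read above it, namely CYP19A1, the aromatase gene (by 2.42), INHBA (by 2.00), FOXL2 (by 1.2) and FSHR (by 0.93). High values of these genes were not particular to PF replicate 3. HS replicate 4 read higher still for CYP19A1 (10.65 beside 6.92 on PF replicate 3), INHBA (10.89 beside 9.97) and FSHR (8.88 beside 8.57). FOXL2 read 8.10 there, beside 8.25 on PF replicate 3, and LHCGR had its lowest HS value there, 7.16. Whether the follicles differed in stage was not tested. The 4 myeloid markers averaged 6.20 to 7.36 in HS and 6.38 to 8.96 in PF, the 5 lymphocyte and leukocyte markers 4.61 to 5.28 in HS and 4.72 to 6.23 in PF, and both lists were highest on PF replicate 3. Markers of theca (7.67 to 8.76 in HS and 6.37 to 9.51 in PF), of endothelium (5.61 to 8.62 in HS and 5.82 to 9.27 in PF) and of fibroblasts and smooth muscle (7.68 to 9.75 in HS and 8.23 to 10.50 in PF) were measurable too, erythrocyte markers averaged 4.41 to 4.76 in HS and 4.84 to 5.09 in PF, and none of the 3 oocyte markers reached 5. On PF replicate 1, the lists of fibroblasts and smooth muscle (10.50), theca (9.51) and endothelium (9.27) averaged above the granulosa list (8.14), and the other lists did not. On PF replicate 3, the lists of fibroblasts and smooth muscle (9.62) and myeloid cells (8.96) averaged above it (8.03), and the other lists did not. Levels of different genes also reflect their probes. All 5 endothelial, 5 fibroblast and smooth muscle, 4 myeloid and 5 lymphocyte and leukocyte markers were lower in HS. Their median differences were -1.03, -0.85, -0.84 and -0.58. Of the 10 granulosa markers, 9 were higher in HS (median 0.65), and the 2 theca markers went opposite ways. TAGLN, CD14 and CD3D (lower) and FST (higher) met the study's thresholds, which 2.21% of all clusters met. None had an adjusted p under 0.05 in limma. The part of other cells in the results on the microRNA genes was not tested. In such bulk samples, fewer cells of a type and less RNA per cell cannot be told apart.

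On PF replicate 3, 16 measurable genes (12.8%) read more than 1 above the mean of the other 3 PF arrays, beside 7.73% of all clusters, and none read more than 1 below it, beside 4.5%. The mean that chose the genes includes PF replicate 3, so a high value there helped a gene to enter and a low one kept it out. All clusters had no such limit, so these shares are descriptions only. A value on PF replicate 3 more than 1 above every other array was seen for 3.2% of the measurable genes. This share was 4.01% among the microRNA genes under 5 and 2.51% among all clusters. The farthest of the 16 genes was MIR421, which measured 5.92, 5.63, 5.48 and 5.93 in HS cows, against 4.32, 4.86, 9.58 and 5.21 in PF cows. Without PF replicate 3, every HS value of MIR421 was above every PF value. The difference, -0.25 ± 1.03 with all arrays, turned to 0.94 without PF replicate 3 and then met the study's thresholds (adjusted p = 0.248 in limma). MIR374B, a neighbour of MIR421 within 10 kb that had a mean of 3.67, was raised on the same array, at 3.68, 3.33, 3.41 and 3.36 in HS cows, against 2.70, 3.20, 6.94 and 2.71 in PF cows. In humans, both genes lie in the noncoding gene FTX.

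MIR2475 measured 7.88, 7.93, 8.37 and 8.65 in HS cows, against 6.79, 7.91, 10.15 and 7.90 in PF cows. It lies within 10 kb of MIR23B, MIR27B and MIR24-1, a set of microRNA genes that is held by the aminopeptidase gene AOPEP, and these 3 genes, all under the mean of 5, were highest on PF replicate 3 as well. MIR27B measured 4.40, 4.17, 3.99 and 4.30 in HS cows, against 4.21, 4.07, 6.93 and 4.41 in PF cows. The cluster of AOPEP itself, which the array names C8H9orf3, read 5.28 on PF replicate 3 and 4.44 to 4.98 on the other arrays. The excess of PF replicate 3 over the other PF arrays was thus 2.62 for MIR2475 and 2.70 for MIR27B, but 0.58 for the surrounding gene.

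Other genes of the same kind behaved unequally toward their surroundings. MIR584-4 measured 5.41, 5.51, 6.06 and 6.40 in HS cows, against 4.92, 5.12, 8.15 and 5.67 in PF cows, and MAGI1, the scaffold protein gene that spans it, was also high on PF replicate 3, with an excess of 2.25 beside 2.91 for MIR584-4. MIR2332 measured 6.18, 6.37, 7.78 and 7.09 in HS cows, against 6.13, 6.31, 8.43 and 6.36 in PF cows, while its surrounding gene UTP6, which acts in ribosomal RNA processing, exceeded the other PF arrays by 0.27. MIR2450A and MIR2450B, which lie together in HTT, the huntingtin gene, exceeded them by 1.33 and 1.38, and HTT fell short of them by 0.35. MIR15A measured 5.02, 4.99, 4.99 and 5.10 in HS cows, against 4.62, 4.97, 6.92 and 5.23 in PF cows, an excess of 1.97, whereas MIR16A, its neighbour in the same transcript in mammals, exceeded them by 0.11. Without PF replicate 3, the HS and PF means were 5.03 and 4.94 for MIR15A and 4.61 and 5.07 for MIR1287. The place of both genes here thus rests on that array. Of the 12 such genes with a surrounding gene on the array, that gene was more than 1 above the other PF arrays in 2.

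**Figure D4:**
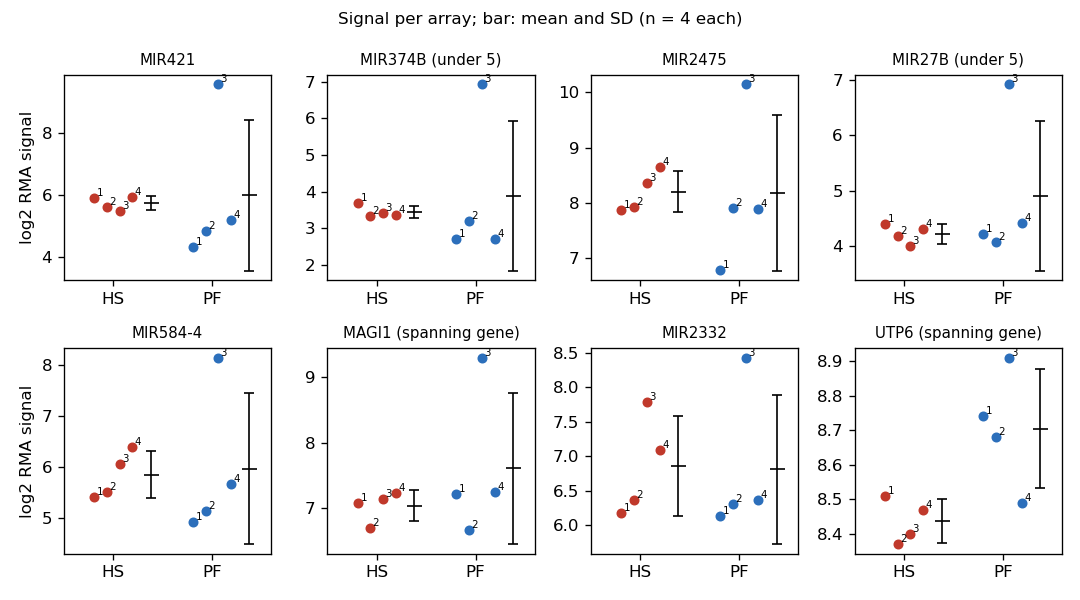
Log2 RMA signal on each array (points, numbered by replicate) in HS (left) and PF (right) for 4 microRNA genes that were high on PF replicate 3, with 2 neighbouring microRNA genes (MIR374B, MIR27B) and 2 surrounding genes (MAGI1, UTP6); bars give the mean and SD of 4 arrays, and the vertical axes differ between panels and do not start at 0. MIR374B, MIR27B and MAGI1 stand out on PF replicate 3 as their partners do, whereas UTP6 reads 8.91 there and 8.37 to 8.74 on the other arrays.

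For 86 of the measurable genes, a gene that spans the microRNA gene was also on the array, 81 different genes in all. The RefSeq table gives no strand, so it is not known which of them share a strand with their microRNA gene. The signs of both differences between HS and PF were the same in 49 pairs and opposite in 37. Of the 81 surrounding genes 1 met the study's thresholds, beside 2.21% of all clusters. It was IGF2, the gene of insulin-like growth factor 2, and measured 7.99, 8.65, 9.43 and 8.24 in HS cows, against 10.05, 9.46, 8.75 and 9.58 in PF cows, a difference of -0.88 ± 0.36 (adjusted p = 0.683 in limma). MIR483, which lies in an intron of IGF2 in mammals, measured 6.89, 6.91, 7.17 and 6.95 in HS cows, against 6.60, 6.88, 7.29 and 6.93 in PF cows, a difference of 0.05 ± 0.15.

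The log2 signal of the microRNA gene minus that of the surrounding gene was taken on each array and compared between HS and PF in each of the 86 pairs. In 5 pairs the shift reached the smallest exact permutation p possible, 0.0286 (two-sided), and after Benjamini-Hochberg adjustment over the pairs the smallest value was 0.491. The widest shift among these was that of MIR2366 against MAP1A, at -1.39 (HS minus PF). MAP1A was itself higher in HS by 0.79 ± 0.40, at 8.49, 8.85, 8.38 and 8.40 in HS cows, against 7.53, 8.54, 6.55 and 8.32 in PF cows, and it overlapped between the groups. MIR25, which is included only through its PF mean and was lower in HS, shifted by -0.43 against MCM7, so that this pair is a description only. The other 3 pairs were MIR1296 with JMJD1C, a histone demethylase family gene (shift 0.76), MIR2348 with TMC6 (-0.68) and MIR677 with ATP5B, the gene of the catalytic subunit of the mitochondrial ATP synthase (-0.52).

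**Figure D5:**
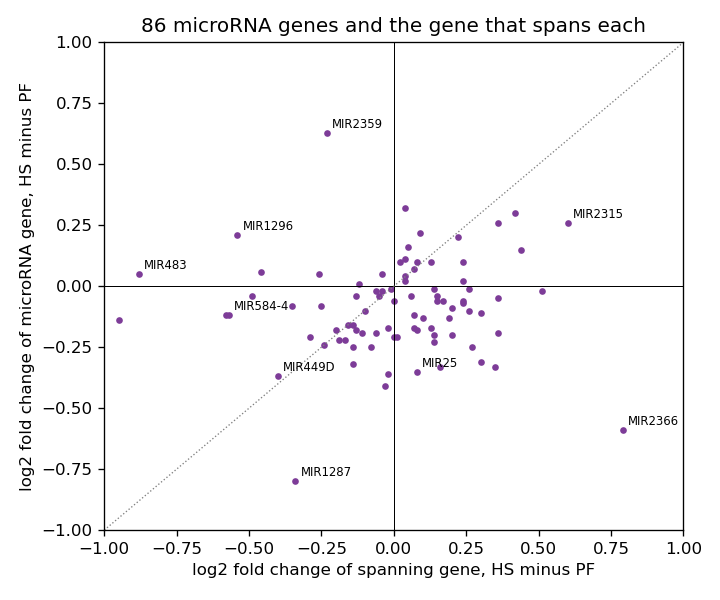
Log2 fold change, HS minus PF, of the surrounding gene (x axis) and of the microRNA gene (y axis) for 86 pairs, with selected pairs named; the dotted line marks equal change. MIR483 lies far left at -0.88 for IGF2 and 0.05 for the microRNA gene, and MIR2366 lies at the lower right, with 0.79 for MAP1A and -0.59 for the microRNA gene.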

How the data were processed

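Granulosa cells of 8 cows (4 HS, 4 PF) were profiled on 1 array each. The authors made the deposited log2 values in the Affymetrix Expression Console by RMA with default settings (background correction, quantile normalization, summary to transcript clusters). Both deposited tables agreed to 1.8e-15, and no column went unused. RMA was not repeated, and no filter on weak signals was set before the tests. Precision is limited by the number of arrays. Of 574 microRNA symbols on the array, each with 1 cluster, 125 had a mean of at least 5 and 449 did not.

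Differences (HS minus PF) were fitted with limma 3.58.1 (R 4.3.3) on all 26773 clusters, with Benjamini-Hochberg adjustment over all of them, and single genes also by exact permutation (two-sided, 70 assignments). The methods' t-test, which equals the unpaired analysis of variance with equal variances, was an alternative, as were eBayes with a trend, array weights, filters, rescaling, other limits for the mean, the replicate number as a block and leaving out arrays. The procedure was tested on simulated data.

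Members and lists were chosen with earlier results of these data known. Named microRNA genes are those past the thresholds or without overlap, the 10 each with the largest difference, mean or range, the let-7 genes and the genes around the mean of 5; MIR2412, MIR106B, MIR483 and other neighbours, relatives and pairs were added after their values were seen. A surrounding gene was to share the strand, but the table used gives none, so any spanning gene was taken. Hairpin and mature sequences were not analysed here.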

Additional observations from a re-analysis of the deposited data

Results flagged for a closer look

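In groups of 4 arrays, 1 value stood farther from the others than a Dixon test at the 95% level allows in 5 of 118 groups tested (59 genes, HS and PF each), where chance alone gives about 1 in 20. MIR421 and MIR2332 were among the genes tested because of their wide range over the arrays, so the chance rate does not hold for them. Of these, 2 lay on PF replicate 3: MIR421 read 9.58, with the other PF arrays between 4.32 and 5.21, and MIR2332 read 8.43, with the others between 6.13 and 6.36. XPO5 read 6.95 on HS replicate 3, and the other HS arrays all read 7.10. MACF1, which spans MIR2416, read 8.49 on HS replicate 1, and the others all read 8.36. UBAP2L, which spans MIR2411, read 10.52 on HS replicate 1, and the others lay between 10.43 and 10.45.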

How the results depend on the processing

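The count of called microRNA genes, 0, became 2 with array weights (MIR2359 and MIR2366), 2 with the replicate number as a block (MIR2359 and MIR1287), 2 without PF replicates 1 and 3 (MIR2366 and MIR421) and 2 with a mean of at least 4 (MIR2284F and MIR877, both under 5). With 1 array left out it ran between 0 and 3: 3 without PF replicate 2 (MIR2439, MIR2359 and MIR1287), 2 without PF replicate 3 (MIR421 and MIR2485) and 1 without HS replicate 1 or without PF replicate 1 (MIR2366). It was 0 under the other alternatives run, as was the count of pathway genes under all. Shares of all clusters called under each alternative are not given here, so these counts are descriptions only. Cows were allocated to the groups at random, and the methods name no pairing by replicate number. The correlations of the deviations of same-numbered arrays were -0.27, 0.21, 0.08 and 0.01, which cannot show whether cows were paired. The block changed no other call. The count without overlap, 4, became 33 without PF replicates 1 and 3, 1 with a mean of at least 6 and 2 with a mean of at least 5 in each group, and ran between 4 and 15 with 1 array left out (12 without HS replicate 4, 15 without PF replicate 1, 8 without PF replicate 2, 10 without PF replicate 3). Fewer arrays leave less room for overlap by chance alone, and shares of all clusters under these settings are not given here. The counts therefore cannot be read as a separation of the groups. The median difference kept its sign and ran between -0.19 without PF replicate 1 and -0.02 without PF replicate 3. Of 33 named microRNA genes, 17 never changed sign, MIR25, MIR449D, MIR187, MIRLET7D, MIR2359 and MIR2366 among them. For MIR25, MIR449D, MIR187 and MIRLET7D, named because their groups did not overlap, leaving out arrays could not turn the sign. MIR2359 and MIR2366 were named for their large differences, so their steady signs lend no support. MIR25 and MIRLET7D are also included only through PF. Signs turned with array weights for MIR1225 (-0.01), MIR2450A (0.03), MIR2411 (0.16), MIR584-4 (0.19) and MIR421 (0.45), with array medians subtracted for MIR346 (0.05) and MIR2450A (0.00), with a repeated quantile normalization for MIR2475 (-0.04) and MIR2450B (-0.03), and without PF replicates 1 and 3 for MIR105A (0.00), MIR2411 (0.18), MIR584-4 (0.45), MIR421 (0.71), MIRLET7I (-0.01) and MIR1287 (0.02). With 1 array left out, the difference ran between -0.23 and 0.08 for MIR105A, -0.68 and 0.09 for MIR15A, -0.26 and 0.59 for MIR2332, -0.07 and 0.25 for MIR2346, -0.37 and 0.41 for MIR2411, -0.25 and 0.03 for MIR2430, -0.39 and 0.28 for MIR2450A, -0.31 and 0.36 for MIR2450B, -0.44 and 0.68 for MIR2475, -0.01 and 0.73 for MIR2485, -0.13 and 0.06 for MIR346, -0.81 and 0.94 for MIR421 and -0.47 and 0.61 for MIR584-4. The cause was not tested. Because each symbol had 1 cluster and no pair of genes had identical values, the alternatives on those points repeated the main values. PF replicate 3 as the highest array was also left out, as an alternative chosen after seeing the data: PF replicate 4 was then highest for 48 of the measurable genes (38.4%; 12.5% of all clusters) and HS replicate 4 for 44 (35.2%; 17.4%).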
